A study of Mus musculus with 6 samples.

Results

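The 9 Kruppel-like factor genes Klf3, Klf4, Klf6, Klf7, Klf9, Klf10, Klf12, Klf13 and Klf16 were followed in cells panned as retinal ganglion cells (RGCs), the neurons whose axons form the optic nerve. The Adult libraries also held high markers of other retinal cell types, given below. They were taken by name, as Kruppel-like factors with a described part in axon growth or close relatives of these. No measured value enters that rule, although it was set with earlier results of these data known. Each gene's level is the sum of its isoform FPKM (fragments per kilobase of transcript, relative to a library total), which allows levels to be compared between genes per unit of length. How the libraries were scaled to each other is not stated, and comparisons between ages depend on it. All 9 were among the 17027 gene symbols listed, and 8 passed the filter for testing, a mean of at least 1 FPKM over the 6 libraries, which 14390 genes passed. Klf4 did not pass it and is described by its values.

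The libraries came from wild-type mice of strain C57/6NCrl aged 18 days of gestation (E18), 5 days after birth (P5) or 8 weeks (Adult), 2 libraries each, with no treatment named. Cells of each age had been captured on anti-Thy1 antibody once macrophages and amacrine cells were panned away. Nothing in the labels ties the libraries of an age to separate animals, so the p-values here reflect the spread between these samples alone, which may be technical. Sequencing depth is unknown, because FPKM hold no counts of reads.

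Kruppel-like factors (KLFs) are transcription factors that bind GC-rich and CACCC sequences through a run of zinc fingers at the end of the protein, while the differing front part of each recruits co-activators or co-repressors. In central nervous system neurons, Klf6 and Klf7 are known to promote axon growth, and Klf4, Klf9 and Klf16 to suppress it. RGCs extend axons before birth and lose much of their capacity for axon growth as they mature, and the KLF family has been studied as one of the intrinsic regulators of that capacity.

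The DNA-binding part of each growth-related member is shown first, because it is the stretch that can be aligned base for base across promoting and suppressing members. The lines give the coding strand of the annotated transcripts (GENCODE, GRCm38) from the first cysteine of finger 1 to the last histidine of finger 3, as 243 bases for each gene, with the 12 codons of the zinc-binding cysteines and histidines in capitals. Introns interrupt the stretch in the genome, where it spans chr13:5865272-5867277 (plus strand) for Klf6, chr1:64035719-64078779 (minus) for Klf7, chr4:55528131-55529790 (minus) for Klf4, chr19:23142187-23164852 (plus) for Klf9 and chr10:80569053-80576819 (minus) for Klf16.
Klf6: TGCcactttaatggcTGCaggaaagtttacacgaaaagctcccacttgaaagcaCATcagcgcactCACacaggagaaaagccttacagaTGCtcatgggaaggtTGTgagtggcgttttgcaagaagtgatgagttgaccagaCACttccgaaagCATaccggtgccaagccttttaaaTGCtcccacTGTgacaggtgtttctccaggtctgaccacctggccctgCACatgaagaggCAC
Klf7: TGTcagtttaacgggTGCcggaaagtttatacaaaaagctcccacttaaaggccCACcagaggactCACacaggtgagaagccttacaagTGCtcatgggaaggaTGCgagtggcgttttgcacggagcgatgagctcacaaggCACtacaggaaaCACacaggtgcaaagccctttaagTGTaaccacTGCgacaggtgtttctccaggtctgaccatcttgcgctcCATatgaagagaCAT
Klf4: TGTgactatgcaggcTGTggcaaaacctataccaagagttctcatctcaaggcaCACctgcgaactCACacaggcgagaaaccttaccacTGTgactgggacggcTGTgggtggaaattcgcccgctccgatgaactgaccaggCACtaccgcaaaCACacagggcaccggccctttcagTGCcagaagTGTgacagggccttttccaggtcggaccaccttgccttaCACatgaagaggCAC
Klf9: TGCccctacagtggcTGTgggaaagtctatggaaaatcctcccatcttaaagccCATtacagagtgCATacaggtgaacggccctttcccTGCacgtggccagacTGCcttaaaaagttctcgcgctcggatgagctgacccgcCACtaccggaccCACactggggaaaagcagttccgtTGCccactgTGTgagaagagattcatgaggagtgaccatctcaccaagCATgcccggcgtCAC
Klf16: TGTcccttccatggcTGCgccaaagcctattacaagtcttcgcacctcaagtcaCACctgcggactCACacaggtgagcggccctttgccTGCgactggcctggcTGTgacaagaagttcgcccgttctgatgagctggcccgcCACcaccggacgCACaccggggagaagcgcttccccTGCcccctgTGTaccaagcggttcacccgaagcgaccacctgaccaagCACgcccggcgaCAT

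Over these 243 bases the growth-promoting pair Klf6 and Klf7 shared 81.1% of positions, the highest share of any pair among the 9 genes. Klf9 shared 72.8% with Klf13 and 71.2% with Klf16, and Klf13 and Klf16 shared 75.3%. Klf9 shared 58.0% with Klf6 and 57.2% with Klf7. Klf4 shared 68.7% with Klf6 and 69.5% with Klf7, against 57.2% with Klf9 and 65.0% with Klf16, the other suppressors. Klf3 and Klf12, both repressors that bind the co-repressor CtBP, shared 78.2%.

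The bases before the transcription start are shown for the growth-promoting pair, for Klf9 and for Klf13, whose isoforms differ by their start. They were read from the RefSeq promoter table (GRCm38.p6), which held 7 of the 9 members, and were shortened where an annotated transcript began inside the window. Capitals mark GGGCGG or its reverse CCGCCC, and CACCC or its reverse GGGTG, where the sites may overlap. The windows are chr13:5861239-5861481 on the plus strand for Klf6, chr1:64121492-64121639 on the minus strand for Klf7, chr19:23140976-23141225 on the plus strand for Klf9 and chr7:63938916-63939165 on the minus strand for Klf13.
Klf6: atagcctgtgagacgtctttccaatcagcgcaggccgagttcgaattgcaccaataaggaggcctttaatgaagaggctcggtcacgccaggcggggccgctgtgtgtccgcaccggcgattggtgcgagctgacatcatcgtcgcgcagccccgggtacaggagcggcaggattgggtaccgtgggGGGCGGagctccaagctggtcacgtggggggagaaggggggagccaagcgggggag
Klf7: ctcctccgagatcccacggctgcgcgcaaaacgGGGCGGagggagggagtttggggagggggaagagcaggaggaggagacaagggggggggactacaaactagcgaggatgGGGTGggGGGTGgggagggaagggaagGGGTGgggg
Klf9: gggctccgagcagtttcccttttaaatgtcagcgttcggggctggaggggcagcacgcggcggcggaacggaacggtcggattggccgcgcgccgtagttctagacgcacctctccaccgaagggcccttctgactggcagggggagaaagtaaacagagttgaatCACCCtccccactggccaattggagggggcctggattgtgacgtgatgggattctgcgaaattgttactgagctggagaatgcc
Klf13: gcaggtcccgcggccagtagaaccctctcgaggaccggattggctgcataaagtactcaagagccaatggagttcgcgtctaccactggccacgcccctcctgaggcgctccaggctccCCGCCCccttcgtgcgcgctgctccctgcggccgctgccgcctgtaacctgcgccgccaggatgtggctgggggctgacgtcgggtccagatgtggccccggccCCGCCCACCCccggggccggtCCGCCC

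Of the 7 member windows, 5 held GGGCGG on either strand, against 32.7% of 32851 windows of 250 bases, and 5 held CACCC, against 52.0%. The Klf6 window held 1 GGGCGG and no CACCC, the Klf7 window 1 and 3, the Klf9 window 0 and 1, and the Klf13 window 3 and 1. A match describes the letters in the window and is not a binding site. For Klf12 the tabled window lies before Klf12-201, an isoform of at most 1.16 FPKM, so it is not printed, though it counts among the 7.

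The cells of the 3 ages differed in markers of other cell types as well as in age. The 12 RGC markers summed to between 2744 and 3216 FPKM at E18, between 3078 and 3358 at P5, but between 294 and 484 in Adult, and 12 of 12 fell from P5 to Adult. The 12 rod photoreceptor markers summed to at most 12.1 FPKM at E18 and P5 but to 6078 FPKM in Adult replicate 1 and 741 FPKM in Adult replicate 2. Cnga1, the rod cyclic nucleotide-gated channel, was listed at 0 at both younger ages. Of the listed markers of amacrine cells the sums were 350 to 433 FPKM at the younger ages and 1448 to 1908 FPKM in Adult, and for Muller glia and astrocytes 206 to 244 FPKM and 1515 to 1818 FPKM. Among the E18 libraries, the 11 progenitor markers summed to 131 FPKM in replicate 1 and 12.3 FPKM in replicate 2. In bulk samples, fewer cells of a type and less RNA per cell cannot be told apart. These markers move with age, so a change of a KLF within RGCs and a change in the mixture of cells cannot be told apart either.

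Among the KLFs, the order of levels changed between P5 and Adult, with Klf9 and Klf12 rising above Klf6 and Klf7. Klf6 and Klf7, the growth-promoting members, were the highest of the 9 at E18 and P5, and fell to 29.3% and 22.4% of their P5 level in Adult. They then ranked 3 and 4 of the 9, above the suppressing members Klf16 at 6 and Klf4 at 9. Klf9, a suppressor, was the second lowest at E18, rose 3.06-fold by P5 and a further 4.41-fold by Adult, and was then the highest. Klf12 rose 4.11-fold and Klf10 fell 4.33-fold from P5 to Adult. Klf3, Klf13 and Klf16 did not pass the test in any comparison as deposited.

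**Figure D1:**
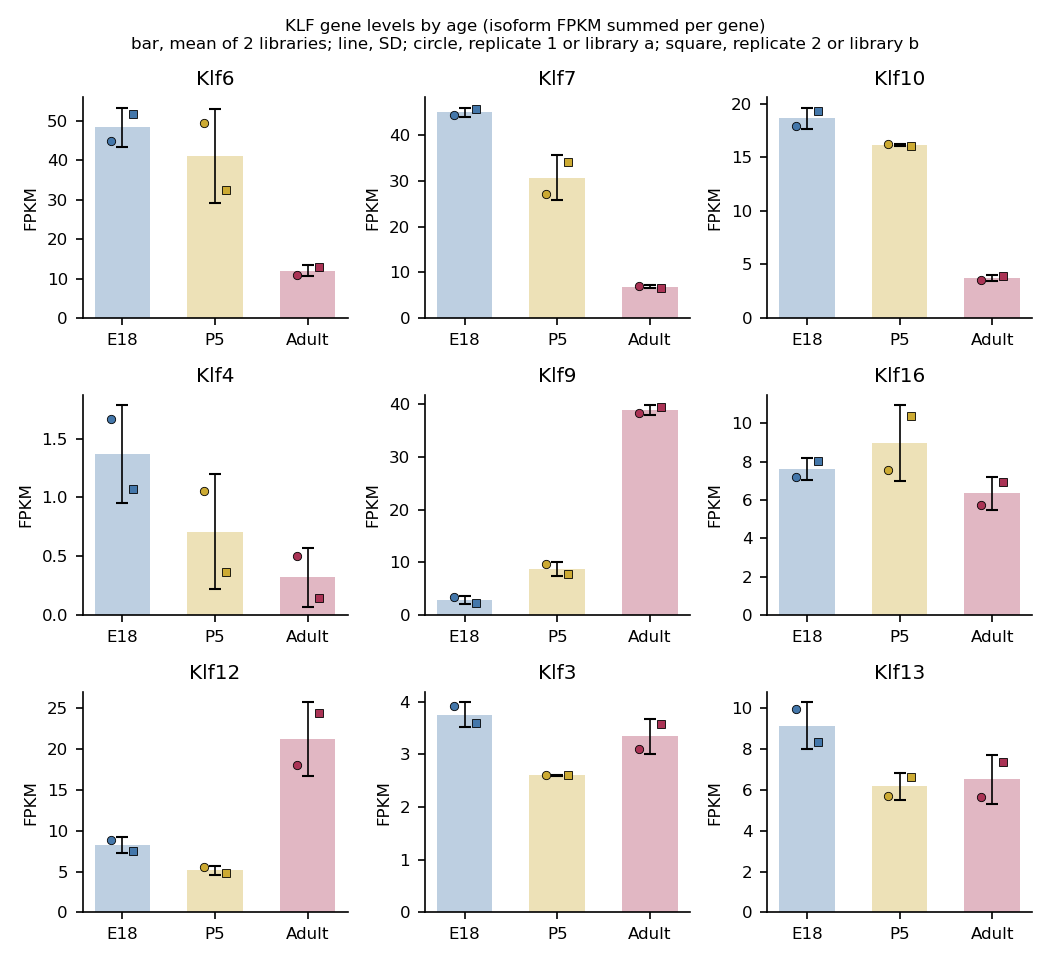
Level of each of the 9 KLF genes (y axis, FPKM summed over isoforms, each panel with its own scale) at E18, P5 and Adult (x axis). Bars are means of 2 libraries, lines are SD and points are libraries. Klf6, Klf7 and Klf10 are lowest in Adult and Klf9 and Klf12 are highest there, with both Adult libraries outside the range of the younger ones.

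Klf6, an activator (chr13:5861482-5870394, plus strand) with an acidic front part that is induced by injury in many tissues, was measured at 44.8 and 51.8 FPKM at E18, then 49.4 and 32.5 at P5, then 10.996 and 13.0 in Adult. The libraries of E18 and P5 overlapped, and both Adult libraries lay below all 4 younger ones. The mean was 48.3 ± 4.95 FPKM at E18 and 40.9 ± 11.9 FPKM at P5 (SD, n = 2 here and below). From P5 to Adult the log2 change of FPKM + 1 was −1.66 (SE 0.21, 95% interval −2.17 to −1.16, limma, adjusted p = 0.000906), a 3.41-fold fall. From E18 to P5 it was −0.26 (interval −0.76 to 0.25, adjusted p = 0.457), which leaves room for a fall or a small rise. Klf6-201, which codes for the 318-codon protein, held between 89.3% and 93.5% of the gene's FPKM in the 6 libraries, and the rest was Klf6-202, a transcript with a retained intron.

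Klf7 (chr1:64029447-64122282, minus strand), the closest relative of Klf6 and a factor that neurons need for axon growth in development, was at 44.4 and 45.8 FPKM at E18, then 27.2 and 34.2 at P5, then 7.12 and 6.67 in Adult. The 3 ages did not overlap and stepped downward. From P5 to Adult the log2 change was −1.998 (SE 0.14, interval −2.33 to −1.67, limma, adjusted p = 0.000111), a 4.46-fold fall, and from E18 to Adult the fall was 6.54-fold (log2 −2.55, adjusted p = 4.3e-05). Between E18 and P5 the change of −0.55 (interval −0.88 to −0.22) did not pass the test over all genes (adjusted p = 0.0552). Klf7 went from percentile 86.1 of the tested genes at E18 to percentile 39.0 in Adult, and Klf6 from 87.2 to 54.7.

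Klf9 (chr19:23141226-23168134, plus strand) is a transcriptional repressor induced by thyroid hormone and by glucocorticoids, and is known to rise in maturing neurons. It was at 3.41 and 2.36 FPKM at E18, then 9.78 and 7.87 at P5, then 38.3 and 39.6 in Adult. The ages did not overlap and stepped upward. The Adult libraries differed by a ratio of 1.03, and the part of other cell types in the Adult level was not tested. Means were 2.88 ± 0.740, 8.82 ± 1.35 and 38.9 ± 0.923 FPKM. The only listed isoform, Klf9-201, has a deposited length of 3263 bases against 4486 annotated, and its level relative to other genes depends on that length. The log2 change was 1.35 from E18 to P5 (SE 0.18, interval 0.92 to 1.77, limma, adjusted p = 0.0132) and 2.03 from P5 to Adult (SE 0.18, interval 1.60 to 2.46, adjusted p = 0.000227). Over the whole span Klf9 rose 13.5-fold (log2 3.37, interval 2.95 to 3.80, adjusted p = 4.08e-05), from percentile 23.9 to percentile 87.0 of the tested genes. The call at P5 was lost when E18 replicate 1 (adjusted p = 0.0893), E18 replicate 2 (0.0822) or P5 library a (0.0898) was left out, with log2 changes of 1.54, 1.15 and 1.20.

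Klf4 (chr4:55527143-55532466, minus strand), known as a pluripotency factor and as a suppressor of RGC axon growth, was the lowest of the 9 at each age. It was at 1.66 and 1.07 FPKM at E18, then 1.05 and 0.365 at P5, then 0.4996 and 0.143 in Adult. The Adult libraries lay below those of E18 and overlapped those of P5. Its mean over the 6 libraries was 0.799 FPKM, under the filter. With every listed gene tested, the log2 change from E18 to Adult was −0.84 (SE 0.28, limma, adjusted p = 0.0414), opposite in sign to that of Klf9, and it was −0.35 from P5 to Adult (adjusted p = 0.311).

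Klf16 (chr10:80567124-80577321, minus strand), a short factor related to Klf9 and Klf13 that recruits the Sin3 co-repressor, was at 7.20 and 8.02 FPKM at E18, then 7.59 and 10.4 at P5, then 5.75 and 6.94 in Adult. Adult lay below the younger ages by a small margin. The log2 change from P5 to Adult was −0.43 (interval −0.87 to 0.01, limma, adjusted p = 0.0814), and that from E18 to Adult was −0.23 (interval −0.67 to 0.21). The 3 suppressing members thus had different courses in these libraries, with Klf9 alone among them passing the test upward.

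**Figure D2:**
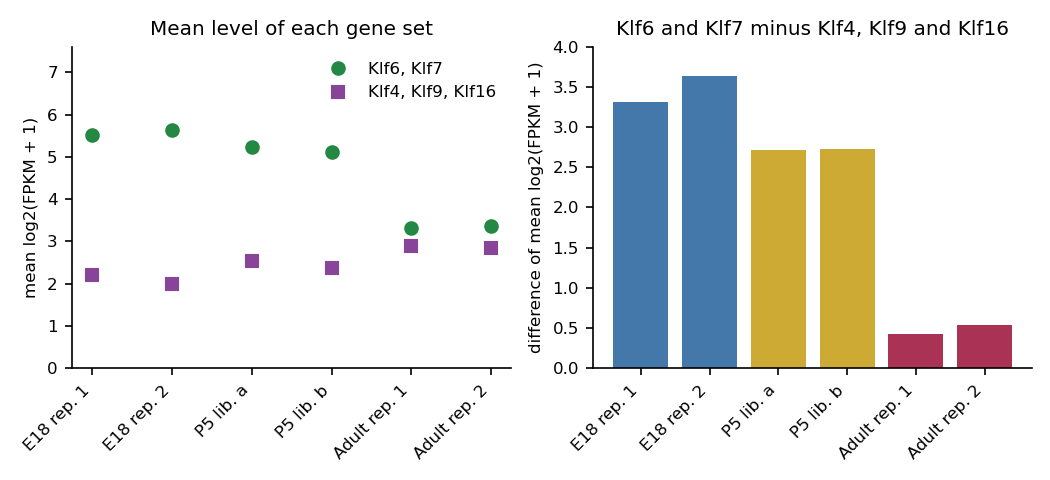
Left, mean log2(FPKM + 1) of Klf6 and Klf7 (circles) and of Klf4, Klf9 and Klf16 (squares) in each library (x axis, rep. for replicate and lib. for library); right, the difference between them as bars. The difference lies between 2.71 and 3.64 in the younger libraries and is 0.42 and 0.53 in Adult.

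The balance of both sets was expressed in each library as the mean log2(FPKM + 1) of Klf6 and Klf7 minus that of Klf4, Klf9 and Klf16. It was 3.31 and 3.64 at E18, then 2.71 and 2.73 at P5, then 0.42 and 0.53 in Adult. The ages did not overlap. The SD between libraries was 0.23 at E18, 0.015 at P5 and 0.076 in Adult, and 0.14 when pooled. Single genes often separated in the same way, at 63.2%, 78.7% and 84.1% of all tested genes in the 3 comparisons. No test is given for a score over chosen genes. From E18 to Adult the mean of the promoting pair went from 5.51 and 5.63 to 3.30 and 3.37. That of the suppressing members went from 2.20 and 1.99 to 2.88 and 2.84, with only Klf9 among them higher in Adult. The promoting pair accounted for 62.7% and 66.0% of the summed FPKM of the 9 members at E18 and for 19.5% and 18.6% in Adult. Klf9 alone accounted for 2.40% and 1.60% at E18, then 7.82% and 6.82% at P5, then 41.2% and 37.5% in Adult. Klf7 exceeded Klf9 by 13.0 and 19.4 times at E18 and by 2.78 and 4.35 times at P5, while in Adult Klf9 exceeded Klf7 by 5.37 and 5.94 times. The summed level of the 9 genes moved less, from 142 and 148 FPKM at E18 to 93.0 and 106 FPKM in Adult.

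Klf10 (chr15:38291463-38300706, minus strand), first described as a gene induced early by TGF-beta, codes for a repressor that binds Sin3. It was at 17.97 and 19.3 FPKM at E18, then 16.2 and 16.1 at P5, then 3.51 and 3.96 in Adult. The younger ages were close together and both Adult libraries were far below them. Between P5 and Adult the log2 change was −1.86 (SE 0.12, interval −2.15 to −1.57, limma, adjusted p = 9.4e-05), and from E18 to Adult the fall was 4.995-fold. Between E18 and P5 it was −0.20 (interval −0.49 to 0.10, adjusted p = 0.327).

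Klf12 (chr14:99870632-100284679, minus strand), a repressor that acts through CtBP, was at 8.88 and 7.49 FPKM at E18, then 5.53 and 4.78 at P5, then 18.035 and 24.4 in Adult. Its lowest values were at P5 and its highest in Adult, with no overlap between ages. The dip from E18 to P5 did not pass the test (log2 −0.58, interval −1.01 to −0.14, limma, adjusted p = 0.0954). The rise from P5 to Adult was 1.84 (SE 0.18, interval 1.40 to 2.28, adjusted p = 0.000351), and Adult was 2.59-fold above E18 (adjusted p = 0.00143). Klf12 was second to Klf9 in Adult.

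Klf3 (chr5:64803388-64832901, plus strand), a CtBP-binding repressor known from red blood cell and fat development, was at 3.92 and 3.59 FPKM at E18, then 2.60 and 2.61 at P5, then 3.11 and 3.58 in Adult. The 6 values span a narrow range, and the largest log2 change was −0.40 from E18 to P5 (interval −0.77 to −0.03, limma, adjusted p = 0.147). Klf13 (chr7:63886351-63938915, minus strand), a Sin3-binding repressor also known in lymphocytes and heart, was at 9.96 and 8.35 FPKM at E18, then 5.72 and 6.66 at P5, then 5.67 and 7.38 in Adult. P5 and Adult overlapped in Klf13, and the log2 change between them was 0.06 (interval −0.36 to 0.48, adjusted p = 0.788).

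**Figure D3:**
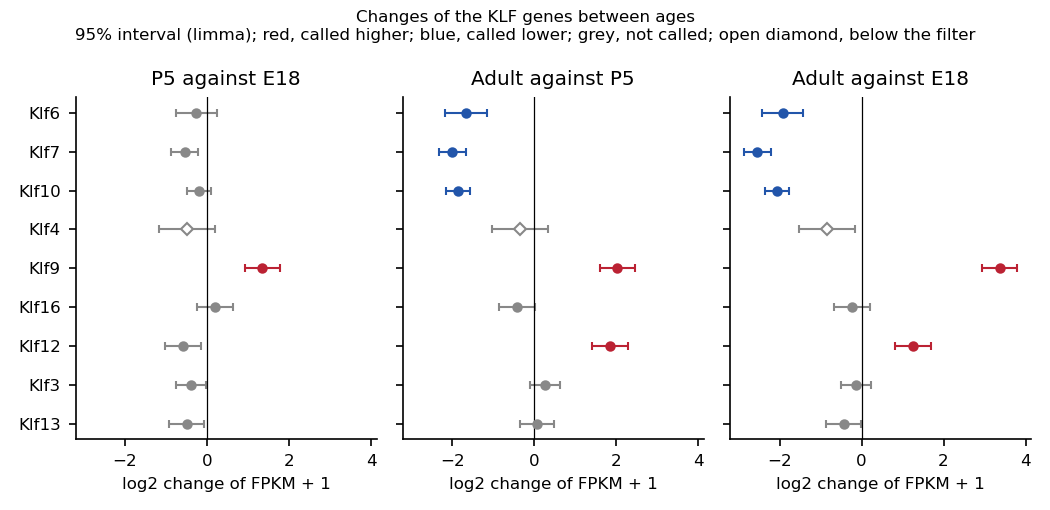
Log2 change of FPKM + 1 (x axis) of each KLF gene (y axis) in the 3 comparisons, with 95% intervals from limma. Red marks genes called higher, blue genes called lower and grey genes not called; the open diamond is Klf4, from the fit without a filter. Klf9 is to the right of 0 in all 3 panels, and Klf6, Klf7 and Klf10 lie between −2.55 and −1.66 in both comparisons with Adult.

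Counted over the 8 tested members, 1 was called higher and 0 lower from E18 to P5 (adjusted p under 0.05), where 5.52% of all tested genes were higher and 4.95% lower. At an unadjusted p under 0.05, 4 of the 8 (Klf3, Klf7, Klf12 and Klf13) were lower, against 15.1% of all tested genes, and none of these passed the adjusted test. The unadjusted threshold was not planned and was applied to this direction and comparison alone, so nothing is read from that share. From P5 to Adult, 2 were higher and 3 lower, against 26.2% and 33.7% of all genes. The same 5 members were called from E18 to Adult, where the background was 25.3% higher and 34.4% lower. The share of members called is near the background in both comparisons with Adult. In the same order of comparisons, the libraries of both ages did not overlap in 6, 7 and 8 of the 8 members, against 63.2%, 78.7% and 84.1% of all tested genes. With 2 libraries an age, such separation is common and says little about the members. The median absolute log2 change of the members was 1.75 for Adult against P5 and 1.59 for Adult against E18, against 0.63 and 0.65 over all tested genes. From E18 to P5 it was 0.45 against 0.25. All tested genes were not matched to the members for level, and log2(FPKM + 1) understates the change of low genes. The members were also chosen with earlier results of these data known.

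Calls of Klf6, Klf7, Klf9, Klf10 and Klf12 in both comparisons with Adult were kept in all alternatives run. With TPM, FPKM rescaled to a common sum, the members split into 2 higher and 5 lower from P5 to Adult and all genes into 1709 higher and 8603 lower, against 3767 and 4843 as deposited. Rescaled to protein-coding genes, all genes split into 5270 and 3356. With TPM the median log2 change of all genes from P5 to Adult moved from −0.07 to −0.76, and Klf13 then fell by 0.62 (adjusted p = 0.020006) and Klf16 by 1.15 (adjusted p = 0.00163). Relative to that median, Klf13 stood at 0.13 and Klf16 at −0.39 with TPM, and at 0.13 and −0.36 as deposited. Klf9 stood at 2.10 above the median of all genes in both scalings.

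At the level of isoforms, 21 were listed for the 9 genes and 16 passed the filter. From E18 to P5, 1 was called higher, Klf9-201, the single isoform of Klf9 (adjusted p = 0.0414), and 0 lower, against 0.804% and 0.824% of all 34941 tested isoforms. That call held with TPM (adjusted p = 0.032) but was lost at a pseudocount of 0.1 (0.0519), with no filter (0.0568) and without any 1 of the 6 libraries (0.0965 to 0.24). At an unadjusted p under 0.05, 3 of the 16 were lower (Klf7-202 and unannotated variants of Klf7-202 and Klf12-205), against 13.0% of all tested isoforms. This threshold too was not planned and was applied to that direction alone, so nothing is read from the share. Between P5 and Adult, 6 were higher and 6 lower, against 19.2% and 24.1%. From E18 to Adult 4 were higher and 7 lower, against 17.9% and 26.8%. Isoform FPKM are estimates in which fragments from shared exons are divided between transcripts, so isoforms of a gene are less certain than their sum.

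Klf13 changed little as a gene from P5 to Adult as deposited, while the isoform estimates moved most of its FPKM from Klf13-204 to Klf13-201. The part of other cell types in this shift was not tested. Klf13-204 was at 6.49 and 5.48 FPKM at E18, then 4.40 and 4.61 at P5, and in Adult it was listed at 0.000231 FPKM in replicate 1 and at 0.997 FPKM in replicate 2. Klf13-201 was at 1.77 and 1.93 FPKM at E18, then 0.867 and 1.41 at P5, then 4.96 and 5.28 in Adult. Neither isoform's Adult values overlapped those of the younger ages. Between P5 and Adult the log2 change was 1.53 for Klf13-201 (SE 0.20, interval 1.03 to 2.03, limma, adjusted p = 0.0026) and −1.96 for Klf13-204 (SE 0.34, interval −2.80 to −1.13, adjusted p = 0.00641). Klf13-201 made up 15.1% and 21.2% of the gene at P5 and 87.4% and 71.6% in Adult. Both P5 to Adult calls were kept in the isoform alternatives run, while the E18 to Adult rise of Klf13-201 (log2 1.10, adjusted p = 0.00762) was lost with TPM (0.0546) and without E18 replicate 1 (0.0616) or 2 (0.0552).

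The 2 transcripts begin at different first exons on the minus strand, Klf13-201 at chr7:63937967-63938915 and Klf13-204 at chr7:63936230-63936301. Their annotated last exons overlap in part, with Klf13-201 ending at chr7:63886351 and Klf13-204 at chr7:63891383. Klf13-201 codes for 289 codons with all 3 fingers. The annotated frame of Klf13-204 holds 52 codons and takes in 39 of the 243 zinc-finger bases, or 13 codons, which are in capitals below within the Klf13-201 stretch.
Klf13: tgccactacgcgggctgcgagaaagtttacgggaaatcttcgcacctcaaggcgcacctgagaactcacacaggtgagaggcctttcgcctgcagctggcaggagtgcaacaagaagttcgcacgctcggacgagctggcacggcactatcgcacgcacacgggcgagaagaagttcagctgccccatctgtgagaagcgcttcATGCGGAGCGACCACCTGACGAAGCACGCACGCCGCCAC

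The annotated Klf13-204 is 487 bases long, but the deposited table lists it at 5550 bases, near the 6396 bases of Klf13-201. The deposited model therefore holds more than the annotated transcript, and what it would code for was not analysed here.

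**Figure D4:**
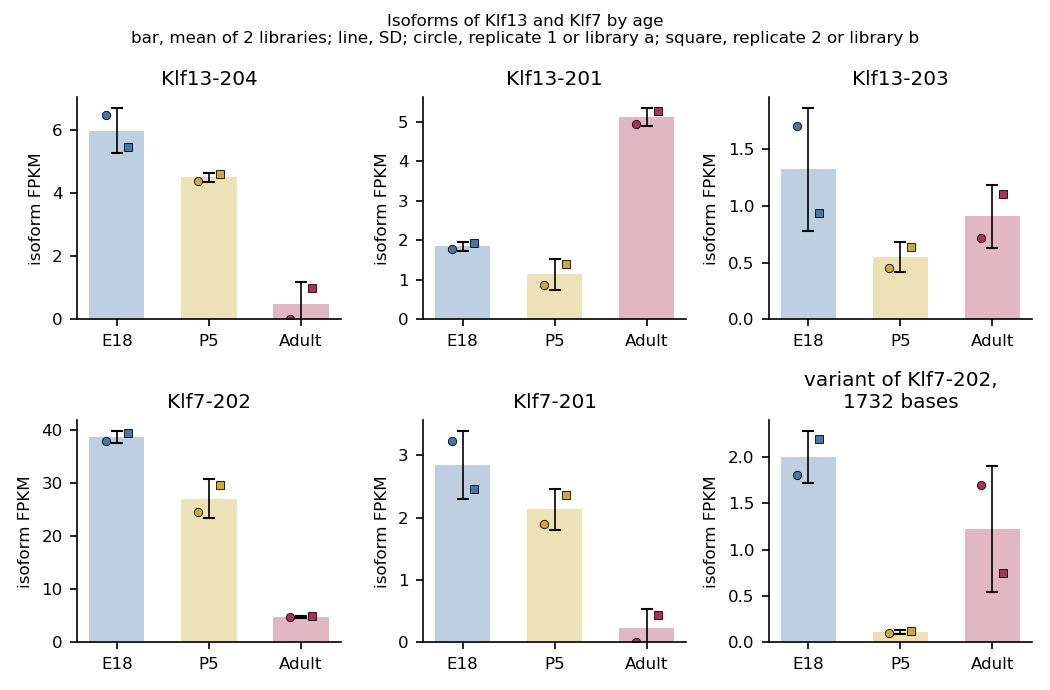
Isoform FPKM (y axis, each panel with its own scale) of 3 transcripts of Klf13 and 3 of Klf7 at each age (x axis); bars are means of 2 libraries, lines are SD and points are libraries. Klf13-204 is at or below 0.997 FPKM in Adult while Klf13-201 is at least 4.96 FPKM there, and Klf7-202 falls below 4.9 FPKM.

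Klf7-202, the 301-codon form, carried most of the fall of Klf7. It was at 37.9 and 39.4 FPKM at E18, then 24.5 and 29.6 at P5, then 4.69 and 4.89 in Adult (P5 to Adult log2 −2.27, SE 0.14, limma, adjusted p = 0.000297). Klf7-201, whose 285-codon frame leaves out 46 of the 243 zinc-finger bases, was at 3.22 and 2.45 FPKM at E18, then 1.90 and 2.36 at P5. In Adult it was listed at 0 in replicate 1 and at 0.447 FPKM in replicate 2 (log2 −1.38, adjusted p = 0.00913, or 0.05197 without P5 library b). An unannotated variant of Klf7-202 of 1732 bases went the other way from P5 to Adult. It was at 1.80 and 2.20 FPKM at E18, then 0.1004 and 0.125 at P5, then 1.70 and 0.746 in Adult (log2 0.96, adjusted p = 0.0353). This call was lost with TPM (adjusted p = 0.05403) and when either E18 library (0.0682 and 0.0677) or either P5 library (0.114 and 0.103) was left out.

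In Klf12, 3 isoforms were called higher from P5 to Adult. Klf12-205, the 402-codon form, was at 4.40 and 4.29 FPKM at E18, then 3.68 and 3.83 at P5, then 8.72 and 14.2 in Adult (P5 to Adult log2 1.36, limma, adjusted p = 0.00653). Klf12-204 and a 6164-base variant of Klf12-205 also rose from P5 to Adult, by 1.64 each on the log2 scale (adjusted p = 0.014 and 0.00447). The call of Klf12-204 was lost without P5 library b or Adult replicate 2 (adjusted p = 0.0754 in each case), while those of the other two were kept in the isoform alternatives run. In Klf10, both Klf10-201 (479 codons) and Klf10-202 (464 codons, from another first exon) fell from P5 to Adult, with log2 changes of −1.72 and −1.27 (adjusted p = 0.00193 and 0.0426). The call of Klf10-202 held with no filter, with TPM and without Adult replicate 2. It was lost at a pseudocount of 0.1 (adjusted p = 0.0552) and when either E18 library (0.066 and 0.0652), either P5 library (0.196 and 0.08005) or Adult replicate 1 (0.192) was left out.

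Of 17 other KLF and SP genes in a list of the rest of the family, 8 had a row and 7 were tested. From E18 to P5, 0 were called higher and 2 lower (Klf11 and Sp1). From P5 to Adult 4 were higher (Klf15, Sp1, Sp2 and Sp4) and 2 lower (Klf8 and Klf11), and 3 and 2 from E18 to Adult. Of all tested genes, 5.52% were higher and 4.95% lower from E18 to P5. The shares were 26.2% and 33.7% from P5 to Adult, and 25.3% and 34.4% from E18 to Adult. The P5 to Adult split was 2 and 3 with TPM, and 2 and 2 without Adult replicate 1. The list's median log2 changes were −0.07, 0.49 and −0.08, against −0.03, −0.07 and −0.11 over all tested genes. Klf1, Klf2, Klf5, Klf14 and Klf17 were not analysed here. Calls between E18 and P5 in this list and the 4 that follow depended on single libraries. Without either E18 library or P5 library a, 0 genes of the 5 lists were called. Without either Adult library or with only the 2 ages compared, 1 gene of this list was called (Klf11) and 0 of the cofactors and of the hormone list.

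**Figure D5:**
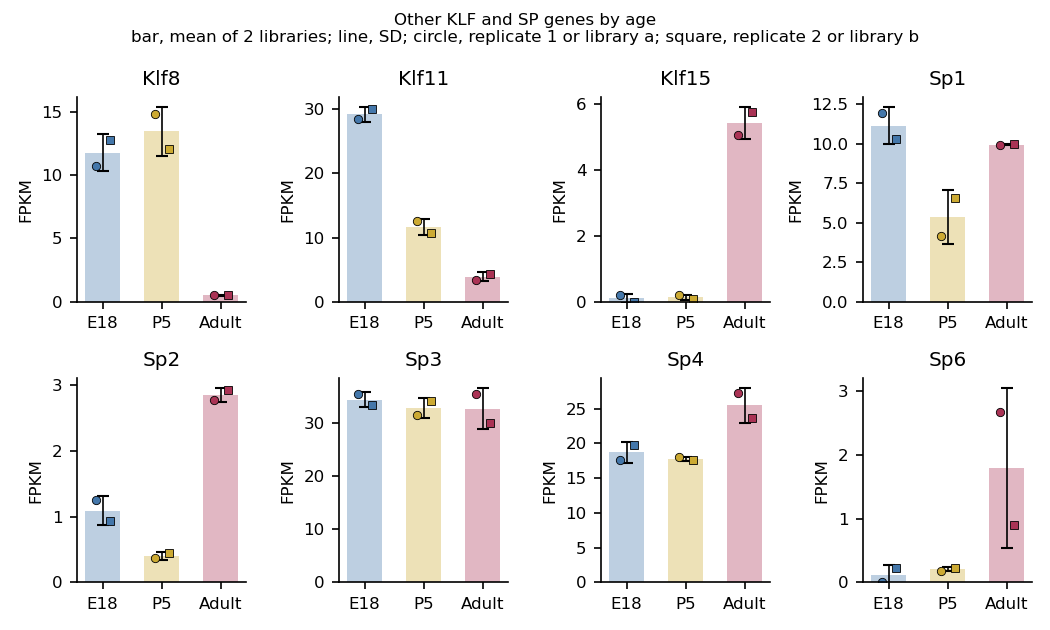
Levels of the 8 other KLF and SP genes with a row (y axis, FPKM, each panel with its own scale) at each age (x axis). Bars are means of 2 libraries, lines are SD and points are libraries. Klf8 and Klf11 are lowest in Adult and Klf15 is near 0 before it.

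Klf11, the closest relative of Klf10, was at 28.4 and 30.02 FPKM at E18, then 12.5 and 10.7 at P5, then 3.36 and 4.37 in Adult. It fell at both steps, by 1.26 (limma, adjusted p = 0.0113) and 1.38 (adjusted p = 0.000527) on the log2 scale, whereas Klf10 did not pass the test at the first. Klf8, a CtBP-binding relative of Klf3 and Klf12, was at 10.7 and 12.8 FPKM at E18, then 14.8 and 12.1 at P5, then 0.549 and 0.493 in Adult. Its P5 to Adult change was −3.24 (adjusted p = 4.93e-05), opposite to that of Klf12. Klf15, a glucocorticoid-induced factor known to suppress neurite growth, was at most 0.204 FPKM in the 4 younger libraries and at 5.06 and 5.75 FPKM in Adult (log2 2.49, adjusted p = 0.000184). Its means at E18 and P5 were 0.102 and 0.136 FPKM, so it passed the filter through its Adult libraries alone. Sp3, a ubiquitous SP factor, lay between 29.9 and 35.4 FPKM in the 6 libraries and did not pass the test as deposited, but fell by 0.75 from P5 to Adult with TPM. Sp4 rose by 0.49 as deposited (adjusted p = 0.0135) and was at −0.23 with TPM.

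Of 10 cofactor genes, 0 were called higher and 4 lower from E18 to P5, 5 and 4 from P5 to Adult, and 3 and 5 from E18 to Adult. In that order the shares over all tested genes were 5.52% and 4.95%, 26.2% and 33.7%, and 25.3% and 34.4%. The median log2 changes of the cofactors were −0.51, 0.26 and −0.17. With TPM the P5 to Adult split was 2 and 5, and with protein-coding scaling 5 and 2. Ctbp2, one of the co-repressors that Klf3, Klf8 and Klf12 bind, was at 27.2 and 28.7 FPKM at E18, then 14.2 and 17.4 at P5, then 57.9 and 63.6 in Adult. Its dip (log2 −0.79, limma, adjusted p = 0.0213) and later rise (1.88, adjusted p = 0.000113) had the directions seen in Klf12. The dip of Klf12 itself did not pass the test. The changes of the cofactor gene Ep300 had the same directions (−0.59 and 1.29), as did those of other cofactor genes and of Sp1, Sp2 and Junb. These directions are thus not particular to Ctbp2. The part of other cell types in the Adult level of Ctbp2 was not tested. Its paralogue Ctbp1 instead went from 147 ± 8.79 FPKM at E18 to 78.0 ± 4.66 FPKM in Adult (log2 −0.90, adjusted p = 0.000636). Sin3b, a scaffold of the co-repressor complex that Klf9 and its branch recruit, fell from 84.7 ± 1.30 FPKM at P5 to 43.6 ± 1.68 FPKM in Adult (adjusted p = 0.000395). The histone deacetylase gene Hdac2 went from 145 ± 10.9 to 93.6 ± 7.72 and then 35.6 ± 0.732 FPKM. Ep300, a histone acetyltransferase gene, rose from 8.23 ± 0.673 FPKM at P5 to 21.5 ± 0.0361 FPKM in Adult (log2 1.29, adjusted p = 0.000275).

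Of 11 genes described as KLF targets or partners in axon growth, 3 were called higher and 0 lower from E18 to P5, 2 and 6 from P5 to Adult, and 3 and 5 from E18 to Adult. In that order the shares over all tested genes were 5.52% and 4.95%, 26.2% and 33.7%, and 25.3% and 34.4%. The median log2 changes of the list were −0.21, −0.56 and −0.29. With TPM the P5 to Adult split was 0 and 9, and with protein-coding scaling 4 and 5. Cdkn1a, which codes for the cell cycle inhibitor p21 and is a target of several KLFs, was at 8.70 and 10.2 FPKM at E18, then 21.1 and 19.3 at P5, then 0.705 and 0.831 in Adult. Its log2 change was 1.02 at the first step (limma, adjusted p = 0.0155) and −3.58 at the second (adjusted p = 2.82e-05). L1cam, a Klf7 target that codes for an axonal adhesion molecule, was at 128 ± 0.309 FPKM at P5 and 19.4 ± 1.60 FPKM in Adult (log2 −2.66, adjusted p = 3.05e-05). Gap43, a growth cone protein gene, was at 33.6 and 35.7 FPKM in Adult, with a P5 to Adult change of −4.91 (adjusted p = 7.82e-06).

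Klf9 is a known target of nuclear hormone receptors, so 14 genes of those receptors and of hormone responses were read beside it. From E18 to P5, 1 was called higher and 0 lower, from P5 to Adult 7 and 4, and from E18 to Adult 6 and 4. In that order the shares over all tested genes were 5.52% and 4.95%, 26.2% and 33.7%, and 25.3% and 34.4%. The median log2 changes of the list were 0.00, 1.33 and 1.15. With protein-coding scaling the E18 to Adult split was 7 and 2. Thrb, a thyroid hormone receptor gene, was at 0.554 and 0.180 FPKM at E18, then 3.15 and 1.56 at P5, then 14.0 and 12.8 in Adult. Like Klf9, it passed the test upward at both steps (log2 1.27 and 2.15, limma, adjusted p = 0.0378 and 0.000932). Thra, the other thyroid hormone receptor gene, was at 329 ± 24.0 FPKM at P5 and 196 ± 21.8 FPKM in Adult (log2 −0.75, adjusted p = 0.00202). The glucocorticoid receptor gene Nr3c1 was at most 1.07 FPKM in the younger libraries and at 12.4 and 9.99 FPKM in Adult (log2 3.03 from P5, adjusted p = 0.000182). The mineralocorticoid receptor gene Nr3c2 rose from 0.957 ± 0.341 FPKM at P5 to 18.4 ± 0.361 FPKM in Adult (log2 3.32, adjusted p = 6.19e-05). Tsc22d3, a gene induced by glucocorticoids as Klf9 is, fell from 51.2 ± 4.71 to 32.1 ± 0.803 FPKM (adjusted p = 0.00302). The genes of the list called higher from P5 to Adult as deposited were Dio2, Hr, Nr3c1, Nr3c2, Per1, Rxra and Thrb. Those called lower were Fkbp5, Rxrg, Thra and Tsc22d3. Dio2, Hr, Nr3c1 and Nr3c2 had means under 1 FPKM at E18 and P5, so they passed the filter through their Adult libraries alone. Rxrg, a retinoid X receptor gene, was at 27.9 and 31.1 FPKM at E18, then 20.7 and 22.1 at P5, then 3.73 and 3.98 in Adult (P5 to Adult log2 −2.21, adjusted p = 5.76e-05).

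Klf4, Klf6 and Klf10 are also known as early response genes, so 13 immediate early genes were read beside them. Their FPKM summed to 253 and 262 at E18, then 158 and 194 at P5, then 272 and 359 in Adult. From P5 to Adult 7 were called higher and 0 lower (4 and 1 with TPM), from E18 to P5 0 and 2, and from E18 to Adult 6 and 1 (3 and 3 with TPM). The shares over all tested genes in that order were 26.2% and 33.7%, 5.52% and 4.95%, and 25.3% and 34.4%. The median log2 changes of the list in that order were 0.75, −0.38 and 0.55. Zfp36, which codes for an mRNA-destabilising protein, rose from 1.11 ± 0.0248 to 6.12 ± 0.0301 FPKM from P5 to Adult (limma, adjusted p = 0.000231), and Egr1 from 3.89 and 3.18 to 20.7 and 38.0 FPKM (adjusted p = 0.000786). Junb was at 28.5 ± 1.17, 12.5 ± 1.76 and 42.2 ± 2.15 FPKM. Fosb, at 3.53 ± 0.164, 5.73 ± 1.12 and 10.3 ± 1.74 FPKM, rose from P5 to Adult (log2 0.75, adjusted p = 0.013). Fos, which had the highest level of the list, was at 80.4 ± 0.213, 78.1 ± 4.37 and 101 ± 19.7 FPKM and did not pass the test from P5 to Adult (log2 0.35, adjusted p = 0.0751). Jun was at 68.0 and 75.4 FPKM at E18, then 41.97 and 19.8 at P5, then 30.7 and 28.8 in Adult, with a P5 to Adult change of 0.039 (adjusted p = 0.926) and a fall of 1.24 from E18 to Adult (adjusted p = 0.0144). Klf6 and Klf10 fell over the same step, and the part of a stress response in any of these values was not tested.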

How the data were processed

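The samples are 6 libraries of cells panned as RGCs, 2 each at E18, P5 and Adult, made from polyA-selected RNA per the labels' protocols. The deposited values are isoform FPKM as the authors estimated them; HISAT2, Cufflinks, Cuffdiff and the build mm10 are named in the submitters' processing notes, without versions or the scaling between libraries. The deposited table lists 50829 isoforms, with 0.0001 in place of 0. Each listed isoform reaches at least 1.00 FPKM in some column used. Because 1 header names both P5 columns, the P5 libraries are distinguished as a and b. Another 9 columns of per-sample values were left out.

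Isoform values were added up for each symbol, and limma 3.58.1 (R 4.3.3, eBayes with a trend) fitted log2(FPKM + 1), with age as the factor and 1 spread over the 6 libraries. Genes and isoforms with a mean of at least 1 FPKM were tested. A gene low at some ages could pass this filter through the age where it was high, so which genes were tested depended in part on the changes tested. Residual degrees of freedom were 3, and prior degrees were 3.26 (genes) and 2.88 (isoforms). All tests are two-sided, with Benjamini-Hochberg adjustment over all genes or isoforms of a comparison, with calls made below an adjusted p of 0.05. A change on the log2(FPKM + 1) scale understates the change of low genes. Intervals are 95% intervals from limma. The fit was tested on simulated data. Transcript structures and positions come from GENCODE annotation of GRCm38.

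The members and the gene lists were chosen with earlier results of these data known. From each of the 5 other gene lists the text names the 4 genes of smallest p and the 2 of highest level. Marker lists are given by their sums. Genes named with a count of 5 or fewer, or as those called in the hormone list, were chosen after their values were seen. The values of a gene in the list of targets and partners are not reported here, though the counts of that list include it. Alternatives were another pseudocount, filters, 3 scalings, annotated isoforms alone, eBayes without a trend, only the 2 ages compared, each library left out, and a replicate block. Those for isoforms and lists, and the balance with a library left out, were added after the values were seen.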

Additional observations from a re-analysis of the deposited data

How the results depend on the processing

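Klf6, Klf7, Klf9, Klf10 and Klf12 kept their calls and directions in both comparisons with Adult under each alternative run, and over all single members 345 values kept direction and side of the threshold, 8 gained and 3 lost a call and 9 changed sign. Leaving out 1 library at a time, the members called higher from E18 to P5 ranged from 0 to 1 and those called lower from 0 to 1. The lower call was Klf7, which was also called with a mean of at least 5 FPKM (1 member lower, adjusted p = 0.0392) and without P5 library b (adjusted p = 0.0485). With TPM, 5 members were lower in Adult than at P5 and 6 lower than at E18. Signs changed for Klf3 (P5 to Adult −0.33 with TPM, E18 to Adult 0.16 with protein-coding scaling), Klf13 (P5 to Adult −0.62 with TPM and −0.017 with quantile normalization) and Klf16 (E18 to Adult 0.0896 with protein-coding scaling). With 1 library left out, the E18 to P5 change ranged from −0.55 to 0.036 for Klf6 and from −0.0021 to 0.40 for Klf16, and the P5 to Adult change of Klf13 from −0.11 to 0.22. The balance of Klf6 and Klf7 against Klf4, Klf9 and Klf16 changed by −0.92 to −0.59 from E18 to P5, by −2.30 to −2.19 from P5 to Adult and by −3.16 to −2.84 from E18 to Adult, and by −2.40 from P5 to Adult with TPM. Beyond what scaling itself moves, the cause was not tested. The replicate block could be fitted for Adult against E18 alone, since the P5 columns carry no numbers, and left 2 members higher and 3 lower. Same-numbered E18 and Adult libraries share only a number, and their deviations correlated by 0.018. Without E18 replicate 1, 9 of all tested genes were called higher and 19 lower from E18 to P5, against 795 and 712 with every library, and without P5 library a 7 and 3. Depth is unknown and limits Klf4 and the isoforms near 0 most.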

Other observations

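For each member with an age mean of at least 5 FPKM, the genes with the most similar course were found among 7378 or 7379 genes with a mean of at least 10 FPKM. The measure was the root-mean-square difference of log2(FPKM + 1) over 6 libraries, each gene centred on its own mean. Klf9 had the fewest close genes, with 13 within 0.25, against 49 for Klf12, 120 for Klf7, 190 for Klf6 and 318 for Klf10, and 942 and 1679 for Klf13 and Klf16, which changed least. Nearest to Klf9 were Acbd4 (0.11, with means of 1.98, 6.13 and 28.7 FPKM at E18, P5 and Adult), Sparc (0.16) and Cx3cl1 (0.16). Nearest to Klf7 were Erh (0.069) and the ribosomal protein genes Rplp0 (0.082) and Rps19 (0.085), where Rplp0 went from 516 to 333 and 91.5 FPKM. Klf6 was nearest to Cenpt, Fads3 and Soga3, Klf10 to Rap1b, Vasp and Tpm3, and Klf12 to Flrt3, Zeb2 and Atf7ip. Klf13 was nearest to Epha6, Ddx6 and Sf3b4, and Klf16 to Dag1, Cnep1r1 and Ski. Among the pairs of members the smallest distance was 0.15, between Klf3 and Klf13, followed by 0.19 between Klf6 and Klf10 and 0.24 between Klf7 and Klf10, and the largest was 2.48, between Klf7 and Klf9. These are descriptions over 6 libraries that share 3 ages.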
